A study of Homo sapiens with 10 samples.

Results

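The genes described are the receptors of the insulin-like growth factors and insulin (IGF1R, IGF2R and INSR), the adaptor IRS1 and the secreted binding proteins IGFBP2 to IGFBP7. The rule that picked their rows used the gene symbol alone, but the genes were chosen with earlier results of these data known. All 10 were among the 27884 genes listed. Of these, 8 were among the 17518 genes tested, which had a normalized count of 10 or more in 5 or more libraries, whereas IGFBP3 and IGFBP5 were not. PANC-1, an established line from a human pancreatic ductal adenocarcinoma, was grown in DMEM with 10% FCS. In the shPAR1 group F2R, the gene of the thrombin receptor PAR1, was silenced with 1 lentiviral short hairpin from the MISSION library. The shCtrl group carried the control construct shc004, and both groups were selected with puromycin. Ribosomal RNA was removed before total RNA was sequenced in 5 libraries of each group, numbered 1 to 5 for shPAR1 and 6 to 10 for shCtrl. Since 1 hairpin was used, effects of F2R loss and of other targets of that hairpin cannot be told apart. The labels do not say whether libraries of 1 group are separate cultures, so the p-values may measure technical spread only.

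IGF1 and IGF2 bind the receptor tyrosine kinase IGF1R, which phosphorylates adaptors such as IRS1 and so activates PI3K and AKT. INSR is its close relative for insulin, and IGF1R and INSR can pair as hybrid receptors. IGF2R has no kinase. It carries proteins tagged with mannose 6-phosphate to lysosomes and takes up IGF2 for degradation. The binding proteins hold IGFs outside the cell, which can prolong their life or keep them from the receptor, and proteases release the ligand again. IGFBP7 binds IGFs only weakly and is often classed as a related protein. In the pancreas, IGF1R and IRS1 are known for growth signaling in ductal adenocarcinoma.

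The sequencing was deep enough for most of these genes, with 15335264 to 25369056 counts per library and a median of 19359056. F2R had mean log2 values of 10.23 ± 0.053 with the F2R hairpin and 11.79 ± 0.036 with the control (SD, n = 5 each), which is 66.0% lower, and its groups did not overlap. All log2 values are log2(normalized count + 1), on which the change of low genes is understated. Over all tested genes 3325 were higher and 3845 lower in shPAR1 cells (limma, Benjamini-Hochberg adjusted p under 0.05), with a median log2 fold change of -0.0046. The mitochondrial genome gave 7.37% to 9.08% of all counts with the F2R hairpin and 5.71% to 7.07% with the control. Of the 6 epithelial markers 1 was higher and 4 were lower in shPAR1 cells, and their sum was 1880 to 2140 CPM (counts scaled to library depth) in shPAR1 and 2670 to 2910 in shCtrl libraries. Of 7 fibroblast or stellate cell markers 4 were listed, 2 higher and 2 lower. Their sum was 299 to 363 CPM in shPAR1 and 234 to 275 in shCtrl libraries, almost all of it COL1A1 and COL3A1, whereas COL1A2, DCN and LUM were not listed. None of the endothelial, leukocyte, acinar and endocrine markers reached the filter, and each of these lists summed to at most 0.645 CPM. The part of these shifts in the results below was not tested. Fewer cells expressing a gene and less RNA per cell cannot be told apart in bulk libraries.

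RefSeq promoters, the 250 bases before each start on GRCh38.p14, were found for 9 of the 10 genes, all but IGFBP7. The 4 printed here belong to the receptors with high expression and to the pair of binding proteins that moved in opposite directions. Capitals mark a GC box (GGGCGG), an E-box (CACGTG) or a TATA box (TATAAA) on either strand. AP-1 (TGANTCA) and FOXO (GTAAACA) motifs were also searched and were not found in these 4.
IGF1R promoter, chr15:98648289-98648538, plus strand: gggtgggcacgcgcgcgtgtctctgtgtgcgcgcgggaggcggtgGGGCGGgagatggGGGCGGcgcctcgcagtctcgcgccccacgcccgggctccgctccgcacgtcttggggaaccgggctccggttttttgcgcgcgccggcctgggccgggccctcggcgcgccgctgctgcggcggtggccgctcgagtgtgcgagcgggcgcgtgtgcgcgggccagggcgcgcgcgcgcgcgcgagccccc
IGF2R promoter, chr6:159968832-159969081, plus strand: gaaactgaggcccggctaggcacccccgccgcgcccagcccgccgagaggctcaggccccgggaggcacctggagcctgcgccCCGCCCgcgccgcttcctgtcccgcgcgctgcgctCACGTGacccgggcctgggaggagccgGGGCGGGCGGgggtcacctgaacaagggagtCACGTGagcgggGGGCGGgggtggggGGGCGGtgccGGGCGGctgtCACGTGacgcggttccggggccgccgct
IGFBP2 promoter, chr2:216633170-216633419, plus strand: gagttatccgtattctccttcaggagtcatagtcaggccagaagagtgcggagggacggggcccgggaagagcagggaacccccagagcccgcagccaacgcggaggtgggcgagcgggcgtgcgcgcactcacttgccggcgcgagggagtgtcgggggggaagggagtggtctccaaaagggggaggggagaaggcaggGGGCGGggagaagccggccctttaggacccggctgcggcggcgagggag
IGFBP4 promoter, chr17:40443200-40443449, plus strand: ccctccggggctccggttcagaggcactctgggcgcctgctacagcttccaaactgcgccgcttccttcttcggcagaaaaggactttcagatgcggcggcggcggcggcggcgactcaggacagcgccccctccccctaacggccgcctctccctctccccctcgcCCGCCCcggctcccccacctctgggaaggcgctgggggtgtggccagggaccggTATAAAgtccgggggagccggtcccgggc
Of all 35116 promoters in the table, 42.6% held a GC box, 6.34% an E-box, 10.7% a TATA box, 6.57% an AP-1 motif and 2.98% a FOXO motif. The IGF1R promoter had 48 CpG dinucleotides, against a median of 11 over all promoters, and 0.205% of promoters had more. It held 2 GC boxes and no TATA box. The IGF2R promoter held 3 E-boxes, which begin 132, 74 and 28 bases before the start, and 6 GC boxes of which the pair at 105 and 101 bases overlaps. At least 3 E-boxes were found in 0.0797% of promoters and at least 6 GC boxes in 2.22%. The IGFBP4 promoter held the only TATA box among the 9 genes, 29 bases before the start, and 1 GC box. The printed IGFBP2 promoter, the one at the start of the canonical transcript, held 1 GC box and none of the other motifs. Further RefSeq promoters of IGFBP2, 592 and 26147 bases from that start, held 1 and 0 GC boxes and none of the other motifs. IRS1 and INSR each had 4 GC boxes and no E-box or TATA box. The only FOXO motif among the 9 genes lay 186 bases before the IGFBP6 start, and no AP-1 motif was found in these windows. A match is a description of the sequence and not evidence of binding.

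Of the 8 tested genes 4 were higher in shPAR1 cells, namely IGF1R, IGF2R, IRS1 and IGFBP4. IGFBP2 and IGFBP7 were lower, whereas INSR and IGFBP6 did not pass the test. Over all tested genes 19.0% were called higher and 21.9% lower. The share of these genes called was above that in the upward direction and close to it in the downward direction. Since the genes were chosen with earlier results of these data known, comparisons with all tested genes here are only a description. The tested genes were not matched to these 8 for expression level. The groups did not overlap for 6 of the 8, and for 29.2% of all tested genes in either direction. The median log2 fold change of the 8 genes was 0.04. Their changes were moderate in size, since the median absolute log2 fold change was 0.20 over all tested genes and 0.35 over all called genes, while 599 genes changed by at least 1. IGFBP7 had the largest change of the 8, and 8.15% of tested genes changed more. Levels in each library are shown in the panels by gene.

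**Figure D1:**
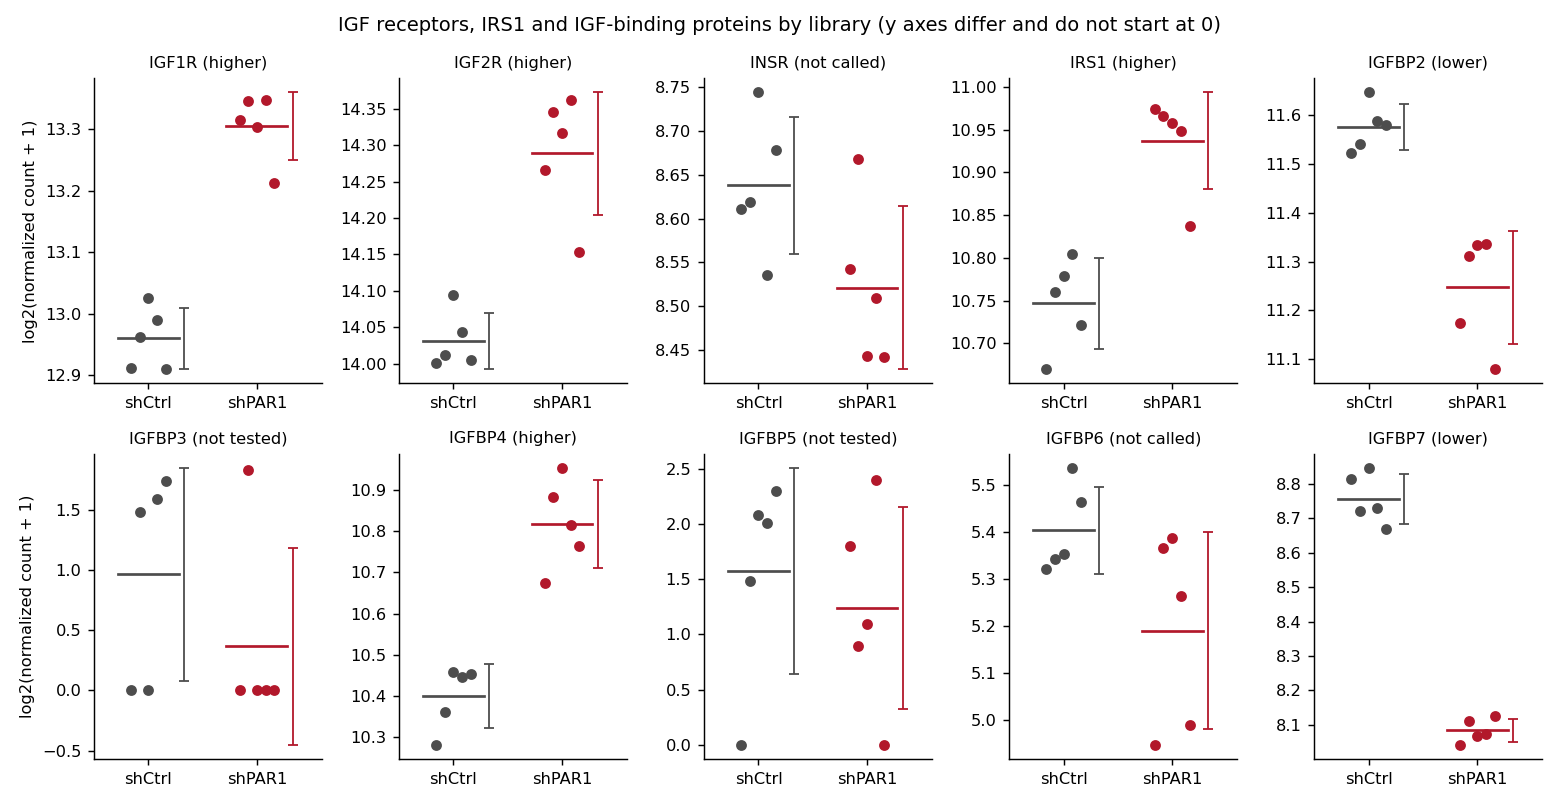
Expression of the 10 genes by library, as log2(normalized count + 1) on the y axis (each panel has its own scale, which does not start at 0), with shCtrl in grey and shPAR1 in red. Points are libraries (n = 5 per group), horizontal lines are means and bars are SD. IGF1R, IGF2R, IRS1 and IGFBP4 lay higher in all 5 shPAR1 libraries, IGFBP2 and IGFBP7 lay lower, and the other 4 overlapped.

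IGF1R, the signaling receptor for both IGFs (ENSG00000140443, plus strand of chromosome 15, 98648539 to 98964530 on GRCh38), was higher in shPAR1 cells. Its log2 values were 13.31, 13.34, 13.30, 13.35 and 13.21 in shPAR1 libraries 1 to 5. In shCtrl libraries 6 to 10 they were 12.91, 12.96, 13.02, 12.99 and 12.91. The lowest shPAR1 library, number 5, lay 0.19 above the highest shCtrl library, number 8. The means were 13.30 ± 0.055 and 12.96 ± 0.050 (SD, n = 5 each), which is 27.0% more transcript in shPAR1 cells. The log2 fold change was 0.34 (standard error, SE, 0.040, limma adjusted p = 1.57e-06). Counts of 7734 to 9804 per shCtrl library make the counting error of IGF1R small.

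IGF2R, the mannose 6-phosphate and IGF2 uptake receptor (ENSG00000197081, plus strand of chromosome 6, 159969082 to 160113507), was higher as well. Its log2 values were 14.27, 14.35, 14.32, 14.36 and 14.15 in shPAR1 libraries and 14.00, 14.01, 14.09, 14.04 and 14.01 in shCtrl libraries. The groups did not overlap, but shPAR1 library 5 lay only 0.060 above the highest shCtrl library. The means were 14.29 ± 0.084 and 14.03 ± 0.039 (SD, n = 5 each), a log2 fold change of 0.26 (SE 0.044, limma adjusted p = 0.000119) or 19.7% more transcript. The antisense gene AIRN overlaps IGF2R and had a mean normalized count of 19.35, so its reads are few beside those of IGF2R. AIRN and the other genes named for an overlap with IGF2R, IGFBP7 or a pathway gene were chosen after their values were seen.

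INSR, the insulin receptor (ENSG00000171105, minus strand of chromosome 19, 7112255 to 7294414), did not pass the test. Its log2 values were 8.54, 8.67, 8.44, 8.51 and 8.44 in shPAR1 libraries and 8.61, 8.62, 8.74, 8.54 and 8.68 in shCtrl libraries. The groups overlapped, with shPAR1 library 2 above 3 of the 5 shCtrl libraries. The log2 fold change was -0.12 (SE 0.063, limma adjusted p = 0.151), and its 95% interval ran from -0.25 to 0.02. A decrease of up to that size is thus within the error of these data. The counts are per gene and do not separate the INSR splice forms.

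Within a library the ratio of IGF1R to INSR needs no size factor. Per kilobase of canonical transcript it was 21.2, 19.8, 22.5, 22.2 and 21.2 in shPAR1 libraries and 15.3, 15.7, 15.1, 17.0 and 14.6 in shCtrl libraries. All shPAR1 ratios were higher, and their mean of 21.4 ± 1.06 was 1.38 times that of shCtrl cells at 15.5 ± 0.925 (SD, n = 5 each). The ratio of IGF2R to IGF1R was 1.72 ± 0.042 in shPAR1 and 1.83 ± 0.026 in shCtrl libraries (SD, n = 5 each), again without overlap. These ratios are given as a description, with no test.

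IRS1, the adaptor that links both signaling receptors to PI3K (ENSG00000169047, minus strand of chromosome 2, 226731312 to 226799820), was higher in shPAR1 cells. In shPAR1 libraries 1 to 5 its log2 values were 10.97, 10.97, 10.96, 10.95 and 10.84, and in shCtrl libraries 6 to 10 they were 10.67, 10.76, 10.78, 10.80 and 10.72. The gap between the groups was the smallest of the 6 separated genes, 0.033 between shPAR1 library 5 and shCtrl library 9. The means were 10.94 ± 0.057 and 10.75 ± 0.053 (SD, n = 5 each), a log2 fold change of 0.19 (SE 0.043, limma adjusted p = 0.00157) or 14.1% more transcript. An equal or larger absolute change was common, as 51.2% of tested genes changed more than IRS1.

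**Figure D2:**
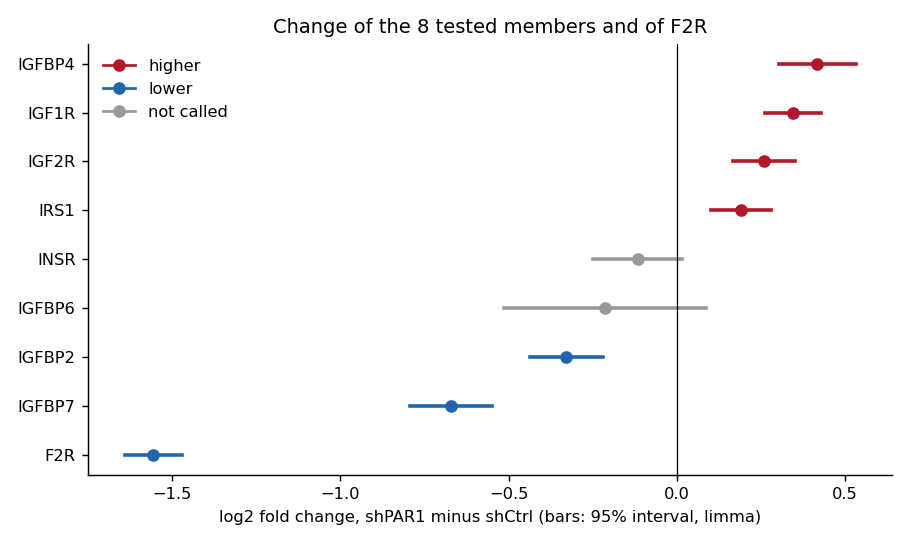
Log2 fold change (x axis, shPAR1 minus shCtrl) of the 8 tested genes and of F2R, with 95% intervals from limma as bars and 5 libraries per group. IGFBP4, IGF1R, IGF2R and IRS1 lie above 0 (0.42, 0.34, 0.26 and 0.19), IGFBP2 and IGFBP7 lie below 0 (-0.33 and -0.67), and the intervals of INSR and IGFBP6 include 0.

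Among the binding proteins IGFBP4 was higher, IGFBP2 and IGFBP7 were lower, IGFBP6 did not pass the test, and IGFBP3 and IGFBP5 were close to absent. IGFBP4, which mainly restrains IGF signaling until it is cleaved (ENSG00000141753, plus strand of chromosome 17, 40443450 to 40457725), had log2 values of 10.67, 10.88, 10.95, 10.82 and 10.76 in shPAR1 libraries. In shCtrl libraries they were 10.28, 10.36, 10.46, 10.45 and 10.45. Each shPAR1 library was thus at least 0.22 above each shCtrl library. The means were 10.82 ± 0.11 and 10.40 ± 0.077 (SD, n = 5 each), a log2 fold change of 0.42 (SE 0.054, limma adjusted p = 6.64e-06) or 33.7% more transcript.

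IGFBP2, a binding protein with high affinity for IGF2 (ENSG00000115457, plus strand of chromosome 2, 216632828 to 216664436), moved the other way. In log2 units it had values of 11.17, 11.31, 11.33, 11.34 and 11.08 in shPAR1 libraries and 11.52, 11.54, 11.65, 11.59 and 11.58 in shCtrl libraries. All shPAR1 libraries were lower, with libraries 1 and 5 the lowest. The means were 11.25 ± 0.115 and 11.58 ± 0.048 (SD, n = 5 each), a log2 fold change of -0.33 (SE 0.051, limma adjusted p = 4.75e-05), and the transcript was 20.2% lower.

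IGFBP7 (ENSG00000163453, minus strand of chromosome 4, 57030773 to 57110385), a secreted relative that also binds the basement membrane, was lower by more. It had log2 values of 8.04, 8.11, 8.07, 8.07 and 8.12 in shPAR1 libraries and 8.81, 8.72, 8.85, 8.73 and 8.67 in shCtrl libraries. The gap between the groups was 0.54, wider than the whole range within either group. The means were 8.08 ± 0.034 and 8.76 ± 0.072 (SD, n = 5 each), a log2 fold change of -0.67 (SE 0.058, limma adjusted p = 4.36e-08), and the transcript was 37.4% lower. IGFBP7 overlaps POLR2B, the gene of an RNA polymerase II subunit, on the opposite strand, and 260 of its 1930 exon bases lie in POLR2B exons. POLR2B had a mean normalized count of 2871 and a log2 fold change of -0.15 (SE 0.038, limma adjusted p = 0.00388). Whether counting used the strand is not stated in the labels or methods read here, so reads from the shared bases may belong to either gene.

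IGFBP6, which prefers IGF2 (ENSG00000167779, plus strand of chromosome 12, 53097436 to 53102345), was low, with 37 to 55 counts per shCtrl library. Its log2 values were 4.95, 5.37, 5.39, 5.26 and 4.99 in shPAR1 libraries and 5.32, 5.34, 5.35, 5.54 and 5.46 in shCtrl libraries. The groups overlapped, and shPAR1 libraries 1 and 5 were the lowest. The log2 fold change was -0.21 (SE 0.14, limma adjusted p = 0.254), with a 95% interval from -0.51 to 0.09, which holds both a decrease and no change.

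IGFBP3, the main IGF carrier of blood (ENSG00000146674, minus strand of chromosome 7, 45912245 to 45921874), had 0, 3, 0, 0 and 0 counts in shPAR1 libraries and 0, 2, 0, 2 and 3 in shCtrl libraries. IGFBP5, known for its place in the extracellular matrix (ENSG00000115461, minus strand of chromosome 2, 216672105 to 216695549), had 2, 1, 1, 4 and 0 counts in shPAR1 libraries and 0, 2, 3, 3 and 5 in shCtrl libraries. Neither rose above 0.215 CPM in any library, and no fold change is given. A library with 0 counts allows up to 3 counts, which is 0.118 CPM in the deepest and 0.196 CPM in the shallowest library, counting error only. The IGFBP5 gene ends 7668 bases from IGFBP2, which was among the highest of the 10 genes in both groups. IGFBP1, which lies 18584 bases from IGFBP3 and was also chosen after its values were seen, had 0, 3, 2, 2 and 5 counts in shPAR1 libraries and 0, 0, 1, 0 and 0 in shCtrl libraries. It too was below the filter.

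Levels can be compared between genes only per length. In shCtrl libraries, in CPM per kilobase of canonical transcript, IGFBP2 stood at 109.0 ± 4.19, IGF2R at 60.2 ± 1.99, IGF1R at 32.9 ± 1.41 and IGFBP4 at 31.0 ± 1.81 (SD, n = 5 each). IGFBP7 followed at 15.3 ± 0.756, IRS1 at 8.89 ± 0.410, IGFBP6 at 2.21 ± 0.161 and INSR at 2.13 ± 0.111 (SD, n = 5 each). In shPAR1 libraries the same scale gave 87.6 ± 6.55 for IGFBP2, 72.5 ± 4.23 for IGF2R, 42.1 ± 1.90 for IGF1R and 41.7 ± 2.70 for IGFBP4 (SD, n = 5 each). IRS1 and IGFBP7 came next at 10.2 ± 0.505 and 9.64 ± 0.195, then INSR at 1.97 ± 0.149 and IGFBP6 at 1.92 ± 0.265 (SD, n = 5 each). Libraries of IGF1R and IGFBP4 overlapped in both groups, as did those of INSR and IGFBP6, and neither pair can be ordered with this length. IGFBP7 was above IRS1 in every shCtrl library, whereas their shPAR1 ranges overlapped. The order at the top depends on the length used. IGFBP2 has a canonical transcript of 1414 bases but 4742 bases of exons in all its transcripts together, and with the latter length IGF2R came first in both groups, at 37.4 in shCtrl and 45.1 in shPAR1 libraries. With that length IGFBP2 came only in place 4 in shPAR1 libraries, at 26.1, after IGFBP4 at 41.7 and IGF1R at 37.0.

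The make-up of the binding protein transcripts shifted from IGFBP2 and IGFBP7 to IGFBP4. Of the summed level of IGFBP2 to IGFBP7 per kilobase of canonical transcript, IGFBP4 took 28.6%, 29.6%, 30.4%, 28.4% and 31.0% in shPAR1 libraries and 18.8%, 19.6%, 19.5%, 20.1% and 20.3% in shCtrl libraries. IGFBP2 took 62.2% ± 1.36 in shPAR1 and 69.2% ± 0.17 in shCtrl libraries, and IGFBP7 took 6.87% ± 0.522 and 9.70% ± 0.525 (SD, n = 5 each). None of these 3 shares overlapped between the groups, while the IGFBP6 share of 1.36% ± 0.111 and 1.40% ± 0.0886 did. With the length of all exons together IGFBP4 took 54.6% in shPAR1 and 40.5% in shCtrl libraries and IGFBP2 took 34.2% and 42.6%. The direction of both shifts was the same under either length, and IGFBP2 was the more abundant of the pair in shCtrl cells under both, but in shPAR1 cells IGFBP4 came first with all exons together. The sum of the 6 genes was 141 ± 8.79 in shPAR1 and 158 ± 6.13 in shCtrl libraries with canonical lengths, without overlap, and 76.3 ± 4.41 and 76.5 ± 3.13 with all exons, with overlap (SD, n = 5 each). A change of the summed level therefore rests on the length chosen.

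**Figure D3:**
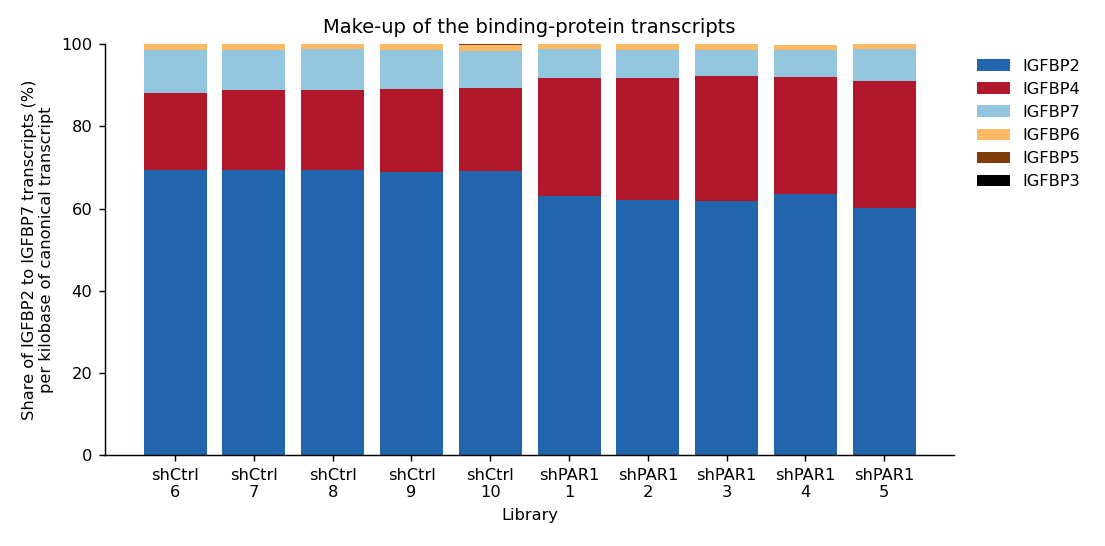
Share of each binding protein gene in the summed level of IGFBP2 to IGFBP7 (y axis, %, counts per kilobase of canonical transcript) in each of the 10 libraries (x axis). IGFBP4 takes 18.8% to 20.3% in shCtrl and 28.4% to 31.0% in shPAR1 libraries, and IGFBP3 and IGFBP5 are too small to see.

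Ratios within a library showed the same shift. The ratio of IGFBP2 to IGFBP4 per kilobase of canonical transcript ranged from 1.94 to 2.24 in shPAR1 libraries and from 3.41 to 3.69 in shCtrl libraries. Its mean was 40.3% lower in shPAR1 cells. The ratio of IGFBP4 to IGFBP7 was 4.33 ± 0.316 in shPAR1 and 2.03 ± 0.167 in shCtrl libraries (SD, n = 5 each), 2.13 times as high. The ratio of IGFBP2 to IGFBP7 was 9.10 ± 0.783 and 7.15 ± 0.368 (SD, n = 5 each), so IGFBP7 was lower in shPAR1 cells also relative to IGFBP2. All 3 ratios were apart between the groups, and the relative change between the groups does not depend on the length used.

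**Figure D4:**
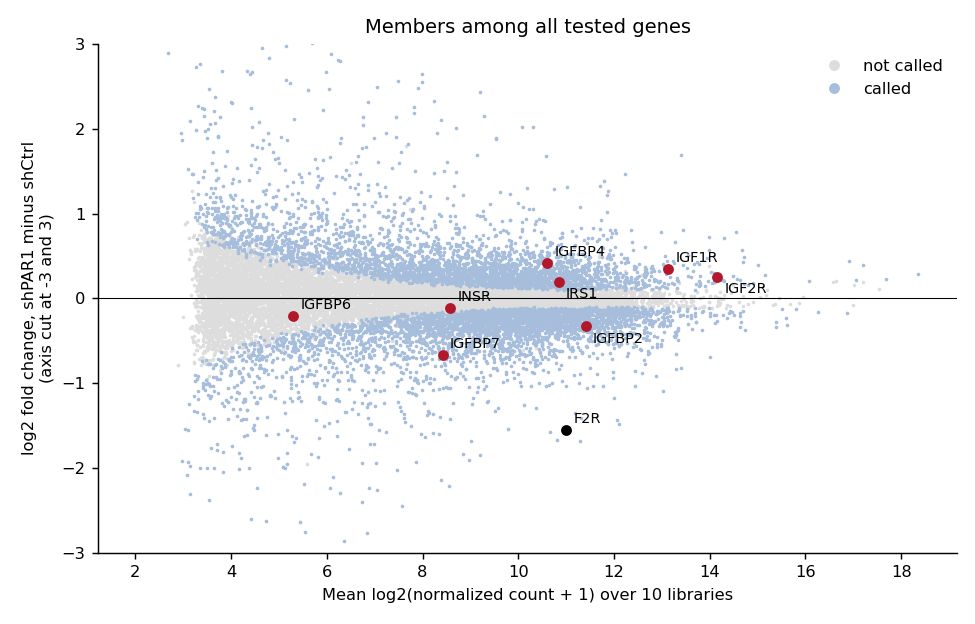
Log2 fold change (y axis, shPAR1 minus shCtrl) against mean log2(normalized count + 1) over the 10 libraries (x axis) for the 17518 tested genes, called genes in blue and others in grey. The 8 tested genes are in red and F2R in black; the y axis ends at -3 and 3, and 55 genes lie beyond it.

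The other genes of the pathway were taken from a list of 88 genes in 11 roles, of which 77 were listed and 72 tested. In shPAR1 cells 24 were higher (33.3%) and 21 lower (29.2%), both shares above those over all tested genes, and the median log2 fold change was 0.03. Since the list was chosen with earlier results of these data known, these shares are only a description. The same holds for the shares by role below, which rest on few genes each. Over all tested genes 19.0% were higher and 21.9% lower. The 3 most changed genes of each role are described here, and the whole list is shown in the plot of changes by role.

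Of the ligands, IGF1 and INS were not listed. The mean log2 value of IGF2 was 8.24 ± 0.13 in shPAR1 and 8.16 ± 0.081 in shCtrl libraries (SD, n = 5 each), with a fold change on that scale of 0.08 (SE 0.072, limma adjusted p = 0.393). IGF2 shares bases with INS-IGF2 on the same strand, so its count is uncertain. The carriers IGFBP1 and IGFALS, both named after their values were seen, were below the filter. IGFBPL1, which encodes a secreted protein with an IGF-binding domain, was lower by 26.3% with a log2 fold change of -0.45 (SE 0.093, limma adjusted p = 0.000803). Its groups overlapped, as shPAR1 library 2 at 7.7137 lay above shCtrl library 10 at 7.7014.

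Of 6 tested proteases of the binding proteins and their inhibitors, 4 were higher (66.7%) and 1 was lower (16.7%). HTRA1, a serine protease that can cleave binding proteins, had log2 values of 10.55 ± 0.077 in shPAR1 and 9.42 ± 0.063 in shCtrl libraries (SD, n = 5 each). The groups lay far apart, with a log2 fold change of 1.12 (SE 0.050, limma adjusted p = 4.72e-12). CTSD, the lysosomal protease cathepsin D, had a log2 fold change of 0.61 (SE 0.059, limma adjusted p = 1.85e-07). STC1, a stanniocalcin that inhibits the IGFBP4 protease PAPPA, went the other way at 7.15 ± 0.066 and 8.04 ± 0.12 (SD, n = 5 each), a log2 fold change of -0.88 (SE 0.077, limma adjusted p = 4.95e-08). PAPPA itself and the second stanniocalcin STC2 were named after their values were seen. PAPPA had a log2 fold change of 0.48 (SE 0.11, limma adjusted p = 0.0018) and STC2 one of 0.46 (SE 0.075, limma adjusted p = 9.26e-05). The substrate IGFBP4, its protease PAPPA and the inhibitor STC2 were thus all higher, while the inhibitor STC1 was lower. Their levels differed widely. In shCtrl libraries PAPPA stood at only 0.252 CPM per kilobase of canonical transcript, against 31.0 for IGFBP4, 7.9 for STC2 and 3.43 for STC1.

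Of 7 tested secreted proteins that share the IGF-binding domain, 2 were higher (28.6%) and 2 lower (28.6%). CCN2, the matricellular connective tissue growth factor, fell from 11.96 ± 0.077 in shCtrl to 10.90 ± 0.064 in shPAR1 libraries (SD, n = 5 each), a log2 fold change of -1.06 (SE 0.046, limma adjusted p = 3.45e-12). Its relatives CCN3 and CCN4 rose by 1.87 and 1.03 on the log2 scale (SE 0.42 and 0.27, limma adjusted p = 0.00167 and 0.00534) from low levels of 2.04 ± 1.04 and 3.20 ± 0.44 (SD, n = 5 each). Both genes overlapped between the groups, as CCN3 in shCtrl library 9 at 3.60 lay above shPAR1 library 1 at 3.45, and CCN4 in shCtrl library 10 at 3.67 lay above shPAR1 library 3 at 3.62. With a pseudocount of 5 the CCN3 change was 1.17 on the log2 scale, still called, and by voom it was 2.37.

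LRP1, an endocytic receptor that also takes up IGFBP3, was higher by 88.5%, with log2 values of 10.79, 11.00, 10.80, 10.94 and 10.62 in shPAR1 libraries and 9.83, 9.89, 10.07, 10.01 and 9.79 in shCtrl libraries. This was a log2 fold change of 0.91 (SE 0.069, limma adjusted p = 7.46e-09). LRP1 overlaps STAT6 on the opposite strand. TMEM219, described as a cell surface receptor of IGFBP3, did not pass, at a log2 fold change of 0.01 (SE 0.059, limma adjusted p = 0.94) whose sign changed when single libraries were left out.

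Of 11 tested receptor adaptors and phosphatases, 2 were higher (18.2%) and 4 lower (36.4%), against 19.0% and 21.9% over all tested genes. IRS2, the sister adaptor of IRS1, had log2 values of 5.44, 5.87, 6.04, 5.42 and 5.56 in shPAR1 libraries and 6.45, 6.52, 6.26, 6.39 and 6.43 in shCtrl libraries. It was lower in every shPAR1 library, the direction opposite to IRS1, with a log2 fold change of -0.75 (SE 0.13, limma adjusted p = 0.000201). PTPN1, a phosphatase that removes phosphate from INSR and IGF1R, had a log2 fold change of -0.29 (SE 0.044, limma adjusted p = 3.62e-05). SOCS1, an inhibitor of receptor signaling, was at -0.31 (SE 0.20, limma adjusted p = 0.217) and did not pass.

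Of 10 genes tested in the PI3K-AKT core, 2 were higher and 3 lower. The PI3K catalytic subunit genes PIK3CD and PIK3CB fell by 0.46 and 0.23 on the log2 scale (SE 0.068 and 0.040, limma adjusted p = 2.64e-05 and 0.000172), and neither overlapped between the groups. INPPL1, which encodes the lipid phosphatase SHIP2, was 11.78 ± 0.093 in shPAR1 and 11.61 ± 0.12 in shCtrl libraries (SD, n = 5 each), a log2 fold change of 0.17 (SE 0.057, limma adjusted p = 0.0223). Its groups overlapped, and the call was lost without replicate 2 or replicate 6. AKT2, whose chromosomal region is known to be amplified in PANC-1, was far above AKT1 in level, and both were named after their values were seen. In shCtrl libraries AKT2 stood at 466.0 CPM per kilobase, against 48.5 for AKT1. The AKT2 log2 fold change was -0.12 (SE 0.043, limma adjusted p = 0.0315), and its groups overlapped.

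Of 9 tested genes of TSC and the mTOR complexes, 4 were higher (44.4%) and 4 lower (44.4%). Of these complexes, mTORC1 is the growth controller downstream of AKT. MLST8, an mTOR complex subunit, rose by 0.36 on the log2 scale (limma adjusted p = 1.70e-05). RHEB, the GTPase that activates mTORC1, and EIF4EBP1, the translation repressor it phosphorylates, fell by 0.30 and 0.28 (limma adjusted p = 0.00082 and 0.0104). Both RHEB and EIF4EBP1 overlapped between the groups. Of 12 tested FOXO factors and target genes, which AKT holds down, 4 were higher (33.3%) and 3 lower (25.0%). FOXO1 was 4.90 ± 0.092 in shPAR1 and 3.93 ± 0.36 in shCtrl libraries (SD, n = 5 each), a log2 fold change of 0.97 (SE 0.20, limma adjusted p = 0.000699), and FOXO4 rose by 0.59 (SE 0.16, limma adjusted p = 0.00673). SESN3, a stress-responsive FOXO target, was at -0.27 (SE 0.16, limma adjusted p = 0.175). The factors FOXO1 and FOXO4 were higher at low levels, with 11 to 26 and 22 to 32 counts per shCtrl library. FOXO3, named after its values were seen, had 329 to 533 counts per shCtrl library and did not pass. Its log2 fold change was 0.08 (SE 0.066, limma adjusted p = 0.342). The calls over the target genes went both ways.

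The mannose 6-phosphate machinery, which tags the lysosomal cargo of IGF2R, had 5 of 10 tested genes higher and 1 lower. GNPTAB, a subunit of the enzyme that adds the tag, was 11.30 ± 0.011 in shPAR1 and 10.97 ± 0.050 in shCtrl libraries (SD, n = 5 each), a log2 fold change of 0.33 (SE 0.038, limma adjusted p = 1.51e-06). GNPTG, another subunit, and NAGPA, which uncovers the tag, rose by 0.29 and 0.39 (SE 0.078 and 0.069, limma adjusted p = 0.00595 and 0.000182). M6PR, the second mannose 6-phosphate receptor, named after its values were seen, rose by 0.19 (limma adjusted p = 0.00113). Of the 3 IGF2 mRNA-binding proteins, which bind IGF2 and other messages, IGF2BP2 and IGF2BP3 fell by 0.50 and 0.26 on the log2 scale (SE 0.042 and 0.041, limma adjusted p = 2.64e-08 and 5.36e-05). IGF2BP1 was at -0.05 (SE 0.041, limma adjusted p = 0.368). Many of these genes overlap a neighbour on the other strand, PIK3CD with CLSTN1 among them, and reads of such pairs may not have been separated.

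**Figure D5:**
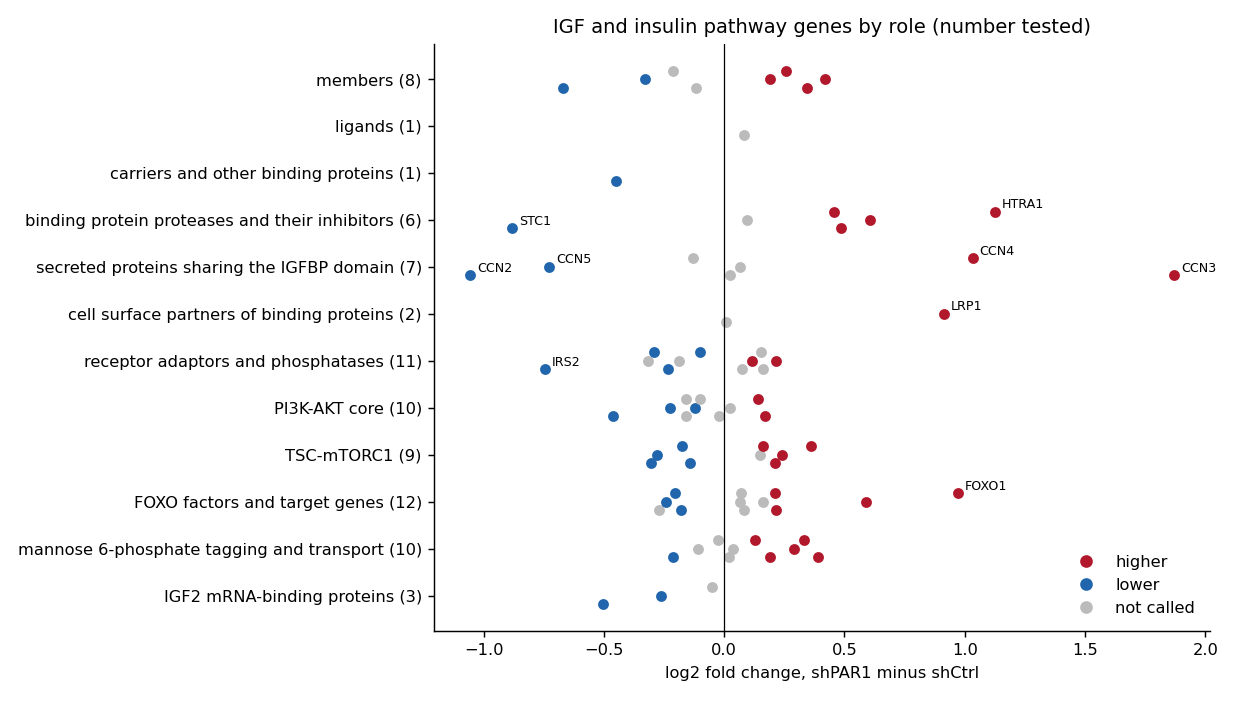
Log2 fold change (x axis, shPAR1 minus shCtrl) of the 8 tested receptor, adaptor and binding protein genes (top row) and of the 72 tested genes of the pathway list, by role with the number tested (y axis). Each point is a gene, red if higher, blue if lower and grey if not called. In the row of proteases and inhibitors 4 of 6 are red, and in the row of IGF2 mRNA-binding proteins 2 of 3 are blue. Over all tested genes 19.0% were higher and 21.9% lower.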

How the data were processed

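Total RNA of PANC-1 cells, an established line, was sequenced as single reads of 50 bases in 5 shPAR1 and 5 shCtrl libraries, grouped by their labels. Per the submitters' processing notes and the paper's methods, the authors ran FastQC 0.11.5, Trimmomatic 0.36, HISAT2 2.1.0 against GRCh38, HTSeq and DESeq2. The gene annotation and strandedness of the counting are not given in the sources used. The deposited log2 values are log2(count divided by a size factor, plus 1), for genes with at least 10 counts over the 10 libraries. Undoing this gave counts within 0.000648 of a whole number for counts under 2000. Of 27884 identifiers 27361 matched GENCODE 44, from which coordinates and lengths were taken.

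The 17518 genes reaching a normalized count of 10 in 5 or more libraries were compared with limma 3.58.1 in R 4.3.3 (trended prior variance, deposited log2 values as input) by a two-sided test, with Benjamini-Hochberg adjustment over all of them and a threshold of 0.05. The deposited values are log2 values and were tested as such. A count model, as the authors used, was not run, although whole counts could be recovered. Tables and plots were made with Python 3.11.15, numpy 2.4.6, pandas 2.3.3 and matplotlib 3.10.9. The same limma code was first tested on simulated data with known changes. Results were recomputed without a filter, with a minimum of 1 CPM in every library of a group, by voom with sample quality weights on the recovered counts, with total-count scaling, with size factors without mitochondrial genes, with a pseudocount of 5, and with each library left out in turn.

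The genes described and the lists were chosen with earlier results of these data known. Named are all 10 genes, F2R, IGF1, IGF2, INS and the 3 tested genes of each role with the largest absolute log2 fold change, called or not. For any other gene, apart from the cell type markers, the text says that it was picked with its values known. Promoter sequences are from RefSeq on GRCh38.p14. 1 item of the pathway list is not reported here.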

Additional observations from a re-analysis of the deposited data

Results flagged for a closer look

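In groups of 5 libraries, 9 of 90 group values looked at (40 genes and 5 ratios in both groups) held a library whose gap to the nearest other library was over 0.71 of the group's range. For normally distributed values chance alone gives about 1 in 20 such groups. That share does not apply to IGFBP3 and IGFBP1 below, where all but 1 library of the group had 0 counts. IRS1 was 10.8374 in shPAR1 library 5 and 10.9488 to 10.9747 in the other shPAR1 libraries, still above all shCtrl libraries. IGFBP3 was 1.8355 in shPAR1 library 2, from 3 counts, and 0 in the others. MLST8 was 10.0624 in shCtrl library 6 and 10.2161 to 10.2486 in the others. INPPL1 was 11.4015 in shCtrl library 6 and 11.6119 to 11.696 in the others. STC1 was 7.2674 in shPAR1 library 3 and 7.1061 to 7.1456 in the others. TMEM219 was 9.7344 in shPAR1 library 1 and 9.9943 to 10.0591 in the others. Both IGF2 and SOCS1 stood apart in shCtrl library 10, IGF2 at 8.3021 against 8.10 to 8.1334 and SOCS1 at 4.4714 against 5.0586 to 5.2437. IGFBP1 was 1.0552 in shCtrl library 8, from 1 count, and 0 in the other shCtrl libraries. All are log2(normalized count + 1) values, and their causes were not tested.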

How the results depend on the processing

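The 8 tested receptor, adaptor and binding protein genes kept their direction and their side of the threshold in all 128 values, over 16 alternatives each, so 4 were called higher and 2 lower throughout. The IRS1 log2 fold change ranged from 0.17 to 0.22 with single libraries left out (adjusted p at most 0.00628 over all its alternatives, limma). Counts over all genes ranged from 2977 to 3371 higher and from 3406 to 4082 lower with single libraries left out, and pathway genes from 20 to 24 higher and from 18 to 24 lower. No count moved by more than 1.5 times, and the median log2 fold change of all genes stayed between -0.0154 and 0.02. Of 446 values of other named pathway genes 438 kept their direction and call. With single libraries left out TMEM219 ranged from -0.023 to 0.0625. It changed sign to -0.0024, -0.0186, -0.0033, -0.0035 and -0.023 without replicates 2, 3, 4, 5 and 10, INPPL1 lost its call without replicates 2 and 6 (0.14 and 0.12), and SESN3 passed the test without replicate 1 (-0.38, adjusted p = 0.0474 from limma). The cause was not tested. The length of all exons together was chosen after seeing the data. It changed levels and shares per kilobase and the separation of the summed binding protein level, as given with those values. No paired analysis was made, because the labels do not say whether libraries of the groups were matched. At this depth IGFBP3 and IGFBP5 had too few counts to be tested.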
